A study of Mus musculus with 4 samples.

Results

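J-domain co-chaperones other than 4 stress-induced ones were followed between the fasted and the re-fed liver. The members were the genes whose name on the array begins with Dnaja, Dnajb or Dnajc and a digit, leaving out Dnajb1, Dnajb9, Dnajb11 and Dnajc3. They numbered 41 of 31829 named genes on the arrays, 4 of type A, 10 of type B and 27 of type C, with 61 probes and 70 spots. Of these, 33 genes with 49 probes gave a usable signal. Livers came from male C57BL/6J mice (strain written as C57/Bl6 in the sample labels) aged 8 to 12 weeks. All mice lost access to food for 24 h. The 4 fasted mice were then killed and the 4 re-fed mice had food for 2 h first, so the re-fed group carries the same fast. No genotype or drug was part of this array comparison. Each of 4 two-colour arrays held total RNA of 1 fasted and 1 re-fed liver, paired at random, with the fasted liver in Cy5 on replicates 1 and 2 and in Cy3 on replicates 3 and 4.

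J-domain proteins, also called Hsp40s, are co-chaperones of Hsp70. The J domain, with its conserved His-Pro-Asp motif, makes Hsp70 hydrolyse ATP and close on a client protein, and a nucleotide exchange factor then releases ADP and the client. Types A and B resemble bacterial DnaJ most and hold clients themselves, whereas type C proteins share little beyond the J domain and bring Hsp70 to one place or task, such as a membrane channel or the ribosome. Hepatocytes make large amounts of secreted and mitochondrial protein and so use J-domain proteins in many compartments. Several cytosolic members are also known as heat shock genes, which respond to the factor Hsf1 when unfolded protein builds up.

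A value below is the log2 of fasted over re-fed signal, so a negative value means a lower signal in the fasted liver. A gene was represented by its brightest usable probe. A gene was called where limma's two-sided test had a Benjamini-Hochberg adjusted p under 0.10 over all 19721 usable probes and the change was at least 1.5-fold. Errors are SD over n = 4 arrays, each from a different pair of livers. The spread holds differences between livers together with dye and array noise, and 4 arrays limit the precision. RNA from whole liver does not tell fewer cells of a type from less RNA per cell. The 9 hepatocyte markers, among them Alb, Ttr and Apob, were all measured. Their median log2 ratio was 0.26, 7 of 9 means lay above 0, and Tat, a gluconeogenic amino acid enzyme, was called higher at 0.84 (limma adjusted p = 0.0451). Replicate 3 stood apart in one respect, since the 4 of 10 pancreatic acinar markers that were measured had a median log2 ratio of -3.37 there and between -0.01 and 0.05 on the other arrays, with Clps at -5.05. The 4 of 5 blood markers measured had medians of 1.37, -0.27, 1.75 and 0.24 on replicates 1 to 4. The immune, endothelial, bile duct, stellate and adipose lists had per-gene means between -0.40 and 0.35, although Krt19 of bile duct and Cfd of adipose tissue were at -1.19 and -1.37 on replicate 3. All 4 endothelial means lay above 0, and Stab2 among them, at 0.35, had an adjusted p under 0.10 (limma adjusted p = 0.0478). The part of these cells in the results below was not tested, and values without replicate 3 are given where they change a call.

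The members that were called all work in the cytosol and nucleus. Dnaja1, Dnaja4 and Dnajb2 were lower in fasted liver, 3 of 33 measured members or 9.09%, against 2.13% of all 16085 measured genes. No member was called higher, against 1.82% of all genes. At an unadjusted p under 0.05, 8 members differed (24.2%), against 22% of all genes, and 7 of them were lower, against 11.7% of all genes. With the adjusted p alone and no limit on fold, 5 of 33 members were lower (15.2%), against 6.28% of all genes. With a dye term in the fit the same 3 genes were called, but 12 members had an adjusted p under 0.10 (36.4%), against 26.8% of all genes, 8 of them lower and 4 higher. The median log2 ratio was -0.00036 over the 33 members and 0.0033 over all genes, and 69.7% of members against 70.6% of all genes lay within 0.2 of 0. No test of the members as a group was made. With the background model (normexp) fitted on all spots, also those with an extreme local background, none of the 3 was called, with means of -1.78 in Dnaja1, -0.34 in Dnaja4 and -0.39 in Dnajb2, and 15 genes of the whole array were called lower.

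**Figure D1:**
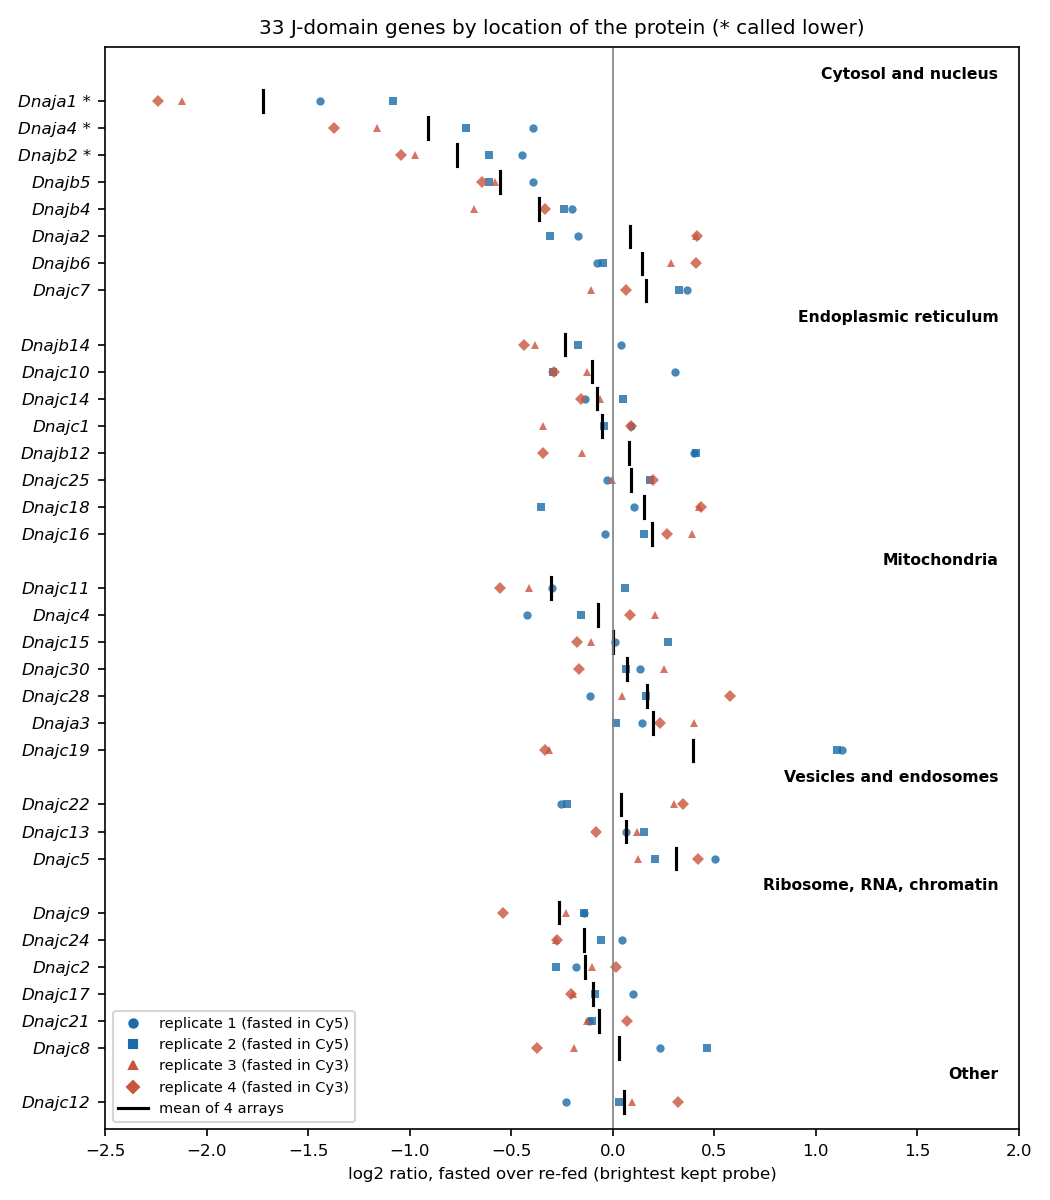
Log2 ratio of fasted over re-fed liver on each array for the 33 measured J-domain genes, by their brightest probe and grouped by where the protein works, with a black bar at the mean of 4 arrays. The 5 genes at the top of the cytosolic group lie below 0 on every array, while the means of the other 28 genes lie between -0.30 and 0.40.

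Dnaja1 encodes the main farnesylated type A partner of cytosolic Hsc70 and helps fold and import new proteins. Its level, as log2 intensity of the channel, was 13.29, 13.83, 12.78 and 12.87 in the fasted livers of replicates 1 to 4. In the re-fed livers it was 14.73, 14.91, 14.90 and 15.11. Every re-fed liver was above every fasted liver. Here and below, the share of all genes whose levels do not overlap was not counted, so such a gap is a description only. The log2 ratios were -1.44, -1.08, -2.12 and -2.24, a mean of -1.72 ± 0.55 (SD, n = 4), or 3.30-fold lower in fasted liver (limma adjusted p = 0.0117). The probe lies at chr4:40679954-40680014 of the mouse build mm9 and starts at base 1393 of the transcript the array names. A second, dimmer Dnaja1 probe, which starts at base 3377 of its transcript, was also called, at -0.85, -0.87, -1.27 and -1.52, a mean of -1.13. A predicted locus described as similar to Dnaja1 has its own spot on the array, and how far the Dnaja1 probes also take up RNA of near-identical copies was not tested.

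Dnaja4, a type A relative of Dnaja1 and a known heat shock gene, was 8.74, 8.60, 8.28 and 8.30 in fasted livers on the same log2 intensity scale. It was 9.13, 9.33, 9.44 and 9.67 in re-fed livers, again with no overlap. Its log2 ratios of -0.39, -0.72, -1.16 and -1.37 gave a mean of -0.91 ± 0.44, or 1.88-fold lower in fasted liver (limma adjusted p = 0.0328). The probe lies at chr9:54564061-54564119 (mm9). Its other probe was not well above background on any array. Without replicate 3 the mean was -0.83 and the adjusted p 0.129, so the call was lost.

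Dnajb2, a type B protein with ubiquitin-binding motifs that passes clients to the proteasome, was 9.94, 10.06, 9.65 and 9.83 in fasted livers. It was 10.38, 10.67, 10.63 and 10.87 in re-fed livers, and the 2 sets of levels did not overlap. The log2 ratios were -0.45, -0.61, -0.97 and -1.05, a mean of -0.77 ± 0.29, or 1.70-fold lower in fasted liver (limma adjusted p = 0.0217). The probe lies at chr1:75241802-75241861 (mm9). A second probe, 941 bases into its transcript, gave -0.63, -0.93, -0.60 and -0.60, a mean of -0.69, and was called too. Without replicate 3 the brighter probe had a mean of -0.70 with an adjusted p of 0.101, just past the threshold.

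Dnajb5, a type B heat shock relative of Dnajb1, narrowly missed the fold limit. It was 7.45, 7.23, 7.36 and 7.38 in fasted and 7.84, 7.84, 7.94 and 8.02 in re-fed livers, without overlap. The log2 ratios of -0.39, -0.61, -0.58 and -0.64 were the closest together of the 5 genes, with a mean of -0.56 ± 0.11, or 1.47-fold (limma adjusted p = 0.0169). Its probe lies at chr4:42971494-42971553 (mm9). Dnajb4, the third type B gene of this family, is named for its adjusted p, a choice made after its values were seen. It was 7.99, 7.99, 7.48 and 7.70 in fasted and 8.19, 8.23, 8.16 and 8.03 in re-fed livers. Its groups did not overlap either, though replicates 1 and 2 of the fasted group came close to the lowest re-fed liver. Its log2 ratios were -0.20, -0.24, -0.68 and -0.33, a mean of -0.36 ± 0.22, or 1.29-fold (limma adjusted p = 0.0962). Replicate 3 had the lowest value, and without it the mean was -0.26 with an adjusted p of 0.284.

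**Figure D2:**
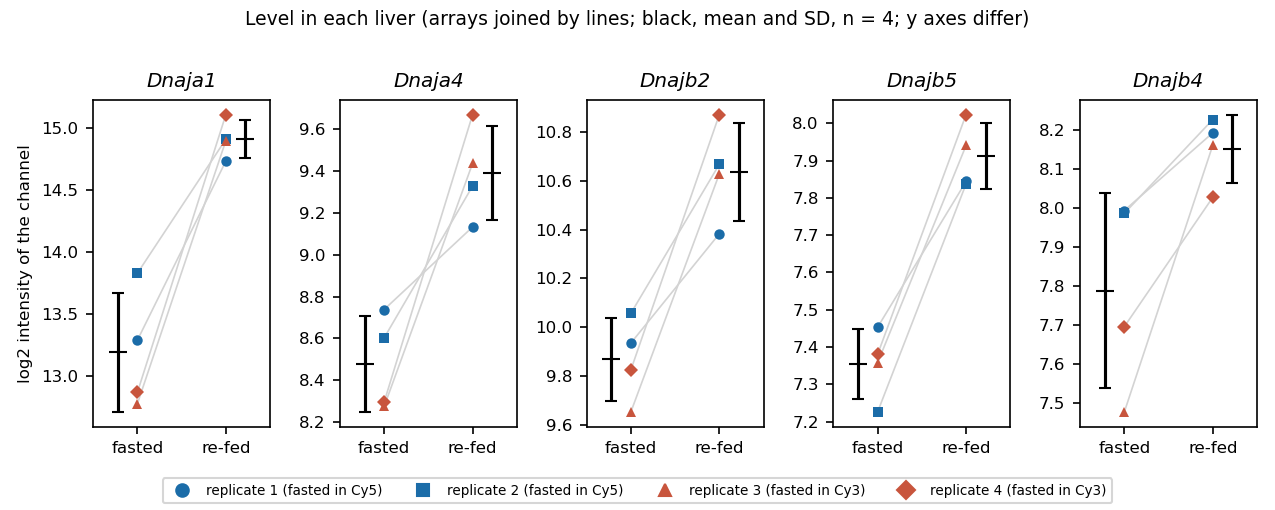
Log2 intensity of the brightest probe in each of the 4 fasted and 4 re-fed livers for the 5 members with an adjusted p under 0.10, livers of one array joined by a line, with mean and SD beside them and a separate y axis for each gene. In all 5 genes the highest fasted liver lies below the lowest re-fed liver, with the closest approach in Dnajb4 (7.99 against 8.03), as also in Dnajc9, which did not pass the test and is not drawn. The share of all genes without overlap was not counted.

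The remaining 3 cytosolic and nuclear members did not pass the test. Dnaja2, the other general type A partner of Hsc70, had log2 ratios of -0.17, -0.31, 0.41 and 0.41, a mean of 0.09 ± 0.38 (limma adjusted p = 0.806). Unlike Dnaja1 and Dnaja4, which were below 0 on every array, this probe lay below 0 on replicates 1 and 2 and above 0 on replicates 3 and 4. The second Dnaja2 probe was above 0 on every array, at 0.24, 0.12, 0.46 and 0.04, with a mean of 0.21. Dnajb6, which keeps aggregation-prone proteins soluble, had 4 usable probes with means from 0.11 to 0.23, of which 2 overlap almost completely in position. Dnajc7, a tetratricopeptide repeat protein that binds Hsp70 and Hsp90, had a mean of 0.16 ± 0.22.

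The sequence before the start sites of the 5 lower genes is shown beside that of Dnajb6, to show which letters of heat shock and cAMP response elements it holds. The sequences are RefSeq windows on build GRCm38.p6, which is not the build of the probe positions. Windows from 250 bases before to 50 after each listed start were searched on both strands, and 33 of 41 members had one, 26 of them measured. Dnajc2, Dnajc5, Dnajc5b, Dnajc11, Dnajc12, Dnajc18, Dnajc22 and Dnajc30 had none. The elements of interest were a heat shock element of 3 units, GAANNTTCNNGAA, its 2-unit parts GAANNTTC and TTCNNGAA, which overlap within it, the full cAMP response element TGACGTCA and its short core TGACG, which overlaps the full one. The CCAAT box, CCAAT, and the endoplasmic reticulum stress element, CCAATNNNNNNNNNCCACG, which holds one, were searched too. For each gene the window with the most matches is printed as the 250 bases before the start, 5′ to 3′ on the gene's strand, with matches to the heat shock units or to the short core in capitals, read as CGTCA where the core is on the other strand. Where windows tied, as in Dnajb4 and Dnajb5, the one listed first is printed. Positions are chr4:40722218-40722467 (plus strand) for Dnaja1, chr9:54699309-54699558 (plus) for Dnaja4, chr1:75236173-75236422 (plus) for Dnajb2, chr4:42949617-42949866 (plus) for Dnajb5, chr3:152210084-152210333 (minus) for Dnajb4 and chr5:29735729-29735978 (plus) for Dnajb6.
Dnaja1: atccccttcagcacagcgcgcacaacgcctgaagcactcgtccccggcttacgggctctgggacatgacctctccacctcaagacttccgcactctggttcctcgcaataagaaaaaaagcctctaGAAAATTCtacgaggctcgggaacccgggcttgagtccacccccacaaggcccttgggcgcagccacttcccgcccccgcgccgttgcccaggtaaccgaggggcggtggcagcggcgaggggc
Dnaja4: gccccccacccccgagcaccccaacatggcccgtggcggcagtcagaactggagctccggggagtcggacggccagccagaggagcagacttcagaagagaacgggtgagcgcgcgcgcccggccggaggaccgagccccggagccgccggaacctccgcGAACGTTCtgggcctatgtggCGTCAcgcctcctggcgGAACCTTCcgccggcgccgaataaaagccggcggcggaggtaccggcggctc
Dnajb2: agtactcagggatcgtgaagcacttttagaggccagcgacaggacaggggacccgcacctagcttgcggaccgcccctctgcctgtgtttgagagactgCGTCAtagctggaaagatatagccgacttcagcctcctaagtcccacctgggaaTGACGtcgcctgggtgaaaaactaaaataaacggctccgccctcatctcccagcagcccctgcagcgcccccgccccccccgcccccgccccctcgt
Dnajb5: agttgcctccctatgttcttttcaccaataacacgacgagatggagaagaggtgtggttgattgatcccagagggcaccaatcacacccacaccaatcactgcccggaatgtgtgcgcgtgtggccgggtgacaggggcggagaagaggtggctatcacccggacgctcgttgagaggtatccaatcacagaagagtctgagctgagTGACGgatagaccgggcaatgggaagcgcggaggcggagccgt
Dnajb4: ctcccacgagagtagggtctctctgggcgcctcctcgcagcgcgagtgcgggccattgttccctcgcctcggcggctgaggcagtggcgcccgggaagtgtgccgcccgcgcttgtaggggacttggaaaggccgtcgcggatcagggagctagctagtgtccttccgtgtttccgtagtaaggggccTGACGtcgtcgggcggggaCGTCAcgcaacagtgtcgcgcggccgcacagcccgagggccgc
Dnajb6: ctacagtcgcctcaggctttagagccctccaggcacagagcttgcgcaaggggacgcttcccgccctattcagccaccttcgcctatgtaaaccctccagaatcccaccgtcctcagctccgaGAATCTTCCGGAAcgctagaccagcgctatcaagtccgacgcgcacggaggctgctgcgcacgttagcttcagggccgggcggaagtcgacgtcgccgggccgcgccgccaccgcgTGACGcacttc

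Dnaja1 held 1 head-to-head pair of heat shock units, at positions -124 to -117 from this start, and Dnaja4 held 2, at -90 to -83 and at -52 to -45. Another start of Dnajb4 had a tail-to-tail pair at -14 to -7. Of all 32851 promoter windows, 7.86% held the head-to-head pair and 8.52% the tail-to-tail pair. The windows of Dnajb2 and Dnajb5 held neither. Each pair was found in 3 of the 26 measured members with a window, the tail-to-tail pair also in Dnajc10, which did not pass the test. The windows of the 4 left-out genes, all called lower by their brightest probes, held neither pair nor the 3-unit element. The 3-unit element was present in 0.603% of all windows, and among the members only Dnajb6 had it, the gene of the printed set whose RNA did not pass the test. The full cAMP response element, present in 1.79% of all windows, was found in Dnajc27 alone, which was not measured. The short core was found in at least 1 window of each of the 5 lower genes, in 14 of the 26 measured members with a window (53.8%) and in 23.0% of all 27025 genes. By window, it stood in 9 of 12 for the lower genes, in 18 of 37 for all measured members and in 20.8% of all windows. These genes and windows are not limited to measured genes, for which the share was not counted. In Dnaja1 the core lay only after the start, at 16 to 20, and so is not among the printed bases. The CCAAT box stood in windows of 2 of the 5 lower genes, of 6 of the 26 measured members and of 41.1% of all genes. By window, it stood in 5 of 12, in 10 of 37 and in 37.4% of all. The endoplasmic reticulum stress element, present in 0.119% of all windows, was found in no member. Windows of one gene overlap, and a match is a description of the letters and not a binding site.

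Members in the endoplasmic reticulum did not pass the test. The 8 genes, all measured, had a median log2 ratio of 0.01. Dnajb14, a membrane partner of cytosolic Hsc70, was lowest at -0.24 ± 0.22 (limma adjusted p = 0.241), with values of 0.04, -0.17, -0.38 and -0.44. Dnajc16 was highest at 0.19 ± 0.18 (limma adjusted p = 0.295). Dnajc10, a luminal disulfide reductase that works with the Hsp70 BiP, had -0.10 ± 0.28, and Dnajc1, a membrane partner of BiP, -0.05 ± 0.20. Dnajc14 had -0.08 ± 0.10 and Dnajc18 0.15 ± 0.37. BiP itself, encoded by Hspa5, was 4.02-fold lower in fasted liver (log2 ratio -2.01 ± 0.69, limma adjusted p = 0.0131). The 3 stress-core members of this compartment that were left out were also called lower, namely Dnajb9 at -1.64, Dnajb11 at -1.14 and Dnajc3 at -0.84. The direction of Dnajb11 depended on the probe, since its second usable probe was above 0 on every array, with a mean of 0.51 (limma adjusted p = 0.0207).

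The 7 mitochondrial members had a median of 0.07 and none was called. Dnaja3, the type A protein of the matrix, had log2 ratios of 0.14, 0.02, 0.40 and 0.23, above 0 on every array, with a mean of 0.20 ± 0.16 (limma adjusted p = 0.256). Dnajc15, a J protein of the inner membrane protein import motor, lay at -0.0004 ± 0.20. Dnajc19, its relative at the same motor, had the highest mean of all members, 0.40, but an SD of 0.83 (limma adjusted p = 0.511, or 0.00845 with a dye term, at 1.32-fold). Its arrays split by dye orientation, with 1.13 and 1.103 where the fasted liver was in Cy5 and -0.31 and -0.33 where it was in Cy3. The second Dnajc19 probe split the other way, at -0.20, -0.13, 0.19 and 0.36. Dnajc11, a partner of the complex that shapes the inner membrane cristae, was lowest at -0.30 ± 0.26 (limma adjusted p = 0.187). Its probe was spotted 10 times per array, and the spots of one array had an SD between 0.044 and 0.104 while the array means ran from -0.56 to 0.06. Dnajc4 had a mean of -0.07 ± 0.28 and Dnajc28 one of 0.17 ± 0.30.

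Of 5 members at vesicles, endosomes and clathrin coats, 3 were measured. Dnajc5, the cysteine string protein of secretory vesicles, was the highest of them and above 0 on every array, at 0.50, 0.21, 0.12 and 0.42, a mean of 0.31 ± 0.18. This was the lowest unadjusted p (0.0123) among the members that did not pass, with a limma adjusted p of 0.107. Its levels overlapped between the groups, from 13.71 to 14.53 in fasted and from 13.21 to 14.11 in re-fed livers on the log2 intensity scale. The other 2 usable Dnajc5 probes had means of -0.16 and -0.17, so the direction of Dnajc5 depended on the probe. Dnajc13, an endosomal protein, had a mean of 0.06 and Dnajc22 one of 0.04. Dnajc6, the auxilin of nerve cells that uncoats clathrin, and Dnajc27 were not well above background on any array.

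The 6 members that act at the ribosome, on RNA or on chromatin had a median of -0.12, and 5 of 6 had a mean below 0. Dnajc9, a histone chaperone, was lowest, with -0.14, -0.14, -0.23 and -0.54, a mean of -0.26 ± 0.19 (limma adjusted p = 0.168). Its levels did not overlap either, from 8.42 to 8.72 in fasted and from 8.74 to 8.97 in re-fed livers on the log2 intensity scale. Dnajc2, the ribosome-bound partner of nascent chains, had -0.14 ± 0.12, and Dnajc24, which takes part in making the diphthamide of elongation factor 2, had -0.14 ± 0.16. Dnajc21, a factor of large ribosomal subunit assembly, had -0.07 ± 0.09. Dnajc17 had -0.10 ± 0.14. Dnajc8, a splicing-associated protein, was highest at 0.03 ± 0.38. Dnajc12, a co-chaperone of the aromatic amino acid hydroxylases, phenylalanine hydroxylase of the liver among them, had -0.23, 0.03, 0.10 and 0.32, a mean of 0.05 ± 0.23. The 6 members expressed mainly in testis, Dnajb3, Dnajb7, Dnajb8, Dnajb13, Dnajc5b and Dnajc5g, gave no usable probe. Dnajb8 was well above background on 1 fasted and 2 re-fed channels and the other 5 on none.

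By type, the 5 genes below the adjusted p threshold were 2 of 4 measured type A, 3 of 6 measured type B and none of 23 measured type C genes. The type C median was 0.03, and its lowest adjusted p was 0.107. By location they were 5 of 8 cytosolic and nuclear genes and none of the 25 others, beside 6.28% of all genes lower at this threshold. This split was that of the main fit, which had no dye term. The rule left out Dnajb1, Dnajb9, Dnajb11 and the type C gene Dnajc3, all called lower by their brightest probes. Of these, Dnajb9, Dnajb11 and Dnajc3 belong to the endoplasmic reticulum, so the split holds for the members only. Without replicate 3, Dnaja4, Dnajb2 and Dnajb4 did not pass (limma adjusted p = 0.129, 0.101 and 0.284). With normexp fitted on all spots, Dnaja1, Dnaja4 and Dnajb2 did not (0.21, 0.559 and 0.488). With the dye term, 7 of the 25 others also had an adjusted p under 0.10 at less than 1.5-fold, namely Dnajb14, Dnajc11 and Dnajc9 with means below 0 and Dnaja3, Dnajc5, Dnajc16 and Dnajc19 with means above it, so 5 of 23 type C genes were then among them. These shares, 28.0% of the other locations and 21.7% of type C, were near the 26.8% of all genes and are no result about these members. A difference between these groups was not tested.

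Probes of one gene were compared where 2 or more were usable, as in 12 genes. The gap between the lowest and the highest mean was 0.13 at the median and ran from 0.03 in Dnajc24 to 0.60 in Dnaja1. The means differed in sign in 2 genes, Dnajc5 and Dnajc25. The second probes of Dnaja1 and Dnajb2 were called in the same direction as the first.

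**Figure D3:**
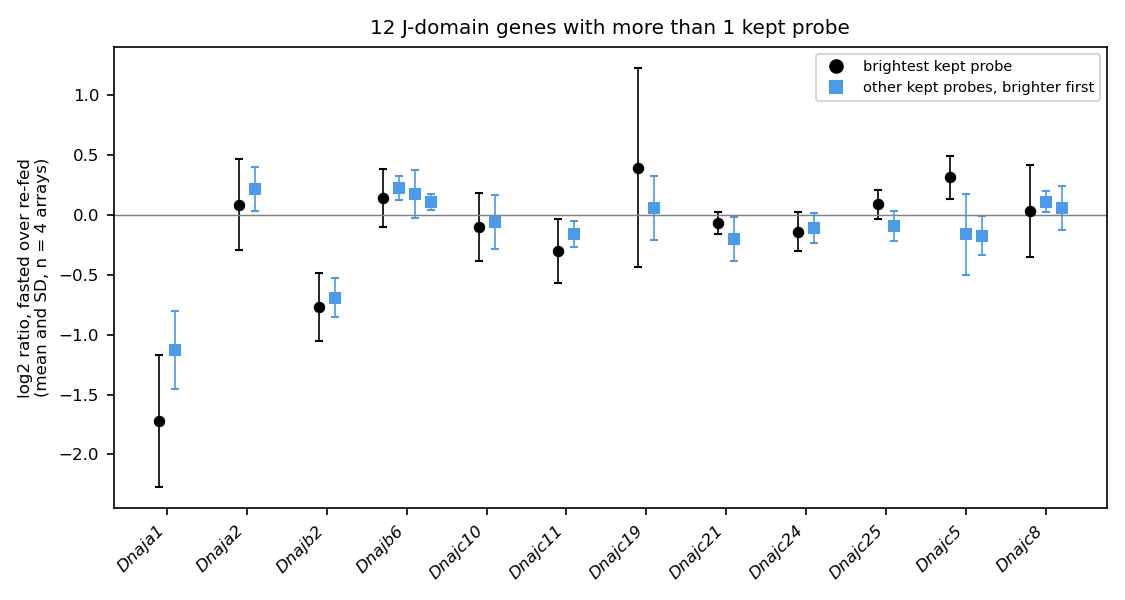
Mean log2 ratio and SD over 4 arrays for each usable probe of the 12 J-domain genes that had more than 1, with the brightest probe as a black circle and dimmer ones as blue squares. Both probes of Dnaja1 and of Dnajb2 lie well below 0, while the probes of Dnajc5 and Dnajc25 lie on both sides of it.

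Of the 49 usable member probes, 12 had a dye effect at a limma adjusted p under 0.10 (24.5%), against 14.8% of all usable probes. This count was 1 with Agilent's processed signals, with median centring in place of loess, and without replicate 3 or 4, 7 with subtracted background or without replicate 1, and 4 with normexp fitted on all spots. The sign of the mean changed with the dye orientation in 14 of 33 genes, none of them among the 5 with a diet adjusted p under 0.10. In Dnajb12, for example, the mean was 0.40 where the fasted liver was in Cy5 and -0.25 where it was in Cy3. The 5 lower genes were below 0 in both orientations. Dnaja1 had means of -1.26 and -2.18, Dnaja4 -0.56 and -1.27, and Dnajb2 -0.53 and -1.01, so all were lower where the fasted liver was in Cy3. The dye adjusted p was 0.0394 for Dnaja1, 0.0595 for Dnaja4 and 0.0746 for Dnajb2. Dnajb5 differed least between orientations, at -0.50 and -0.61 (dye adjusted p = 0.612). Each orientation holds 2 pairs of livers, so a dye effect and a difference between those pairs cannot be told apart.

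**Figure D4:**
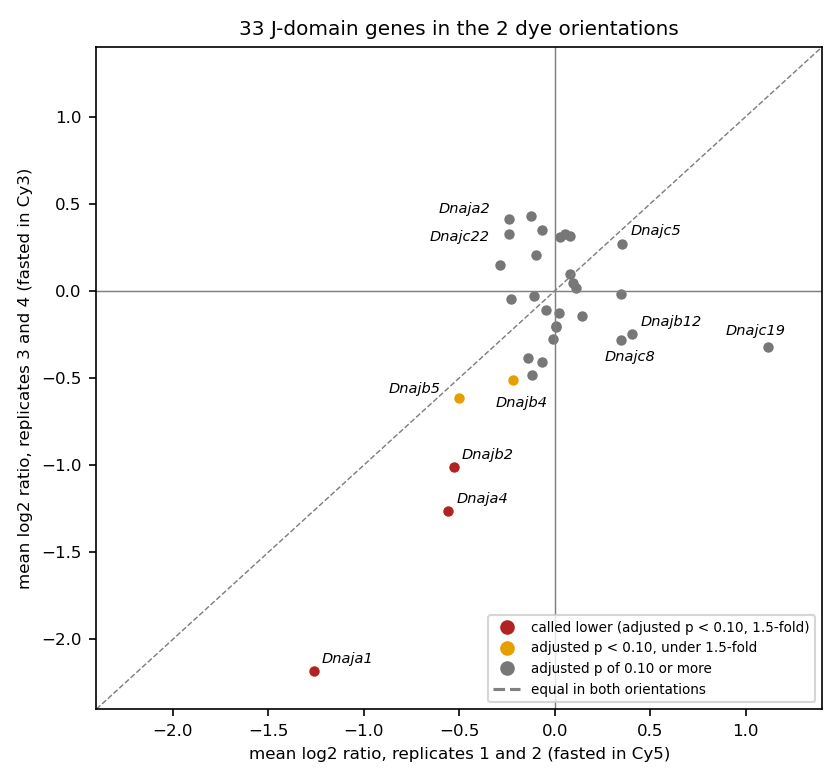
Mean log2 ratio of replicates 1 and 2 (fasted liver in Cy5) against that of replicates 3 and 4 (fasted liver in Cy3) for the 33 measured J-domain genes, coloured by the result of the test. The 5 genes with an adjusted p under 0.10 lie below 0 on both axes, 14 genes lie in quadrants of opposite sign, and Dnajc19 is farthest from the line of equal values.

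The partners of the J-domain proteins in the Hsp70 cycle were read from lists set up for the chaperone cycle. Among 8 measured Hsp70 genes of 11, 4 were called lower and none higher. Hspa1a, the stress-induced cytosolic Hsp70, had log2 ratios of -1.37, -1.47, -2.10 and -2.43, a mean of -1.84 (limma adjusted p = 0.00782). Hspa8, the constitutive Hsc70 that Dnaja1 and Dnaja2 serve, had -0.33, -0.78, -1.55 and -1.86, a mean of -1.13 (limma adjusted p = 0.0547). The call of this Hspa8 probe was lost without replicate 2, 3 or 4 (adjusted p = 0.125, 0.189 and 0.138), while 2 further Hspa8 probes were called at -1.22 and -1.25. Hspa5 and Hspa13 were the other 2, and a second Hspa13 probe was at -0.34 and not called. Hspa9, the mitochondrial Hsp70 that Dnaja3 serves, had a mean of -0.03 ± 0.25 (limma adjusted p = 0.919). The members that did not pass the test thus included those of the endoplasmic reticulum, whose Hsp70 was called lower, and of the mitochondria, whose Hsp70 was not. For the endoplasmic reticulum this depends on the rule, which left out Dnajb9, Dnajb11 and Dnajc3, all called lower by their brightest probes. Its members also include Dnajb14, a partner of cytosolic Hsc70.

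Among 13 exchange factors, all measured, 4 were called lower and 1 higher by the brightest probe. Hspa4 was not called by that probe (-0.18, limma adjusted p = 0.536), but a second probe was called lower at -0.72 (adjusted p = 0.0429) and the remaining one had -0.33. Hsph1, the cytosolic Hsp110, was lowest at -2.28 ± 0.35 (limma adjusted p = 0.00229). It was followed by Bag3 at -1.81, Hspa4l at -1.55 and Hyou1, the exchange factor of BiP, at -0.82, whose call was lost without replicate 2, 3 or 4 (adjusted p = 0.129, 0.15 and 0.137). Grpel2, a mitochondrial exchange factor, was higher at 0.76 ± 0.37 (limma adjusted p = 0.0376). Its call was lost without replicate 2 (0.77, adjusted p = 0.123) or replicate 3 (0.75, adjusted p = 0.139) and with normexp fitted on all spots (0.28, adjusted p = 0.559). A second Grpel2 probe was called higher in the main fit at 0.61 (limma adjusted p = 0.0604). Of 7 adaptors and small heat shock proteins, 4 were called lower, of which Fkbp4 lost its call without replicate 3 (-0.94, adjusted p = 0.103). Stip1, which joins Hsp70 to Hsp90, had -1.31 ± 0.06, and Hspb1 had -1.33 ± 0.32. By their brightest probes, all 4 left-out J-domain genes were called lower, from -1.64 in Dnajb9 to -0.84 in Dnajc3, with Dnajb1 at -1.39 ± 0.17. On this scale Dnaja1 lay below Dnajb9, while Dnaja4 lay between Dnajb11 and Dnajc3 and Dnajb2 above Dnajc3, without a test between neighbours. With normexp fitted on all spots, none of these partners and only Dnajb11 of the 4 left-out genes was called. Of 4 J-domain proteins with other names, 3 were measured and none called, with Hscb, the mitochondrial iron-sulfur cluster co-chaperone, at 0.48 ± 0.20 (1.39-fold, limma adjusted p = 0.0433).

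**Figure D5:**
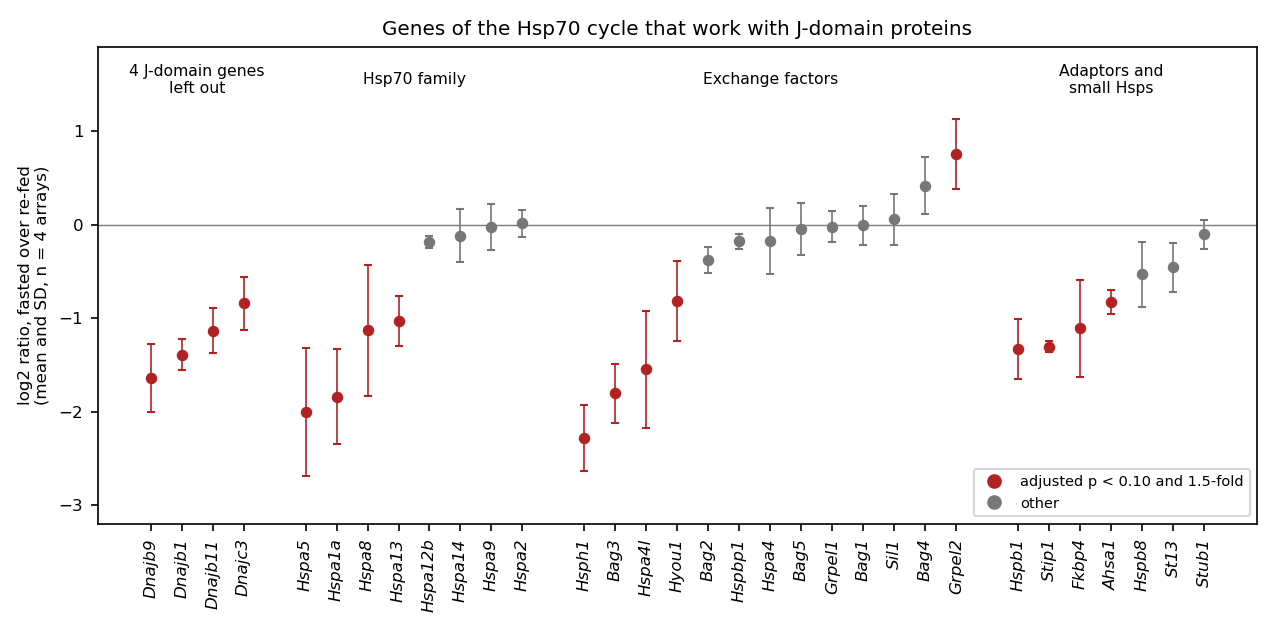
Mean log2 ratio of fasted over re-fed liver and SD over 4 arrays by the brightest probe for the 4 J-domain genes left out of the members and for the measured Hsp70 genes, exchange factors and adaptors, with called genes in red. All 4 left-out genes and 12 of 28 partners were called lower, and Grpel2 was called higher.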

How the data were processed

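The study amplified and labelled 200 ng of total RNA per liver with Cy3 or Cy5, hybridized it to Agilent whole mouse genome arrays and quantified the scans with Agilent Feature Extraction (10.10.1.1 per the file headers). The deposited scanner files give the intensity of each spot and of its local background per channel. The authors also deposited a log2 ratio per spot, normalized by loess in limma, with its background step not given in the sources used here. Matched by row to the scanner files, it correlated with the ratios computed here at 0.975 to 0.992 per array and ran in the same direction, and its array medians lay between -0.117 and 0.056.

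Pixel medians were taken into R 4.3.3 and handled with limma 3.58.1. Spots whose local background exceeded 3 times the array median in either channel were left out (55 over all arrays, none of a member). The remaining spots were corrected by normexp with an offset of 50 and normalized by loess within each array. Spots that the software marked as non-uniform or as outliers among their copies were dropped, which took 197 to 322 per array and 5 member spots in all. No member spot was saturated. Spots of a probe were averaged. To be usable, a probe needed a value on each of the 4 arrays and the software's mark for signal above background in all fasted or in all re-fed channels, which 19721 of 39429 probes had. All 49 usable member probes were above background in both conditions. Ratios were turned to fasted over re-fed and fitted with lmFit and eBayes. The dye was tested as an intercept in a second fit. Levels per liver were taken after quantile normalization of the mean log2 intensity between arrays.

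The labels do not pair the livers beyond the array they share, which the ratio already uses, and all arrays lay on 1 slide, so no batch could be tested. On simulated data with 200 probes changed by 1.5 on the log2 scale among the 19721 probes, 99.5% were recovered and 3.4% of calls were false. This change is larger than the means of Dnaja4 (-0.91), Dnajb2 (-0.77), Dnajb5 (-0.56) and Dnajb4 (-0.36). The simulation therefore does not tell how well changes of their size are found. All 41 members are named, with values on each array for called genes and for those with an unadjusted p under 0.01. Location groups, members and lists were chosen from general knowledge with earlier results of these data known. Alternatives covered the background correction, normalization, filters, thresholds, dye term, a rebuilt SAM test with 16 sign flips, channels as separate samples, choice of probe and leaving out each array. Protein sequences were not used here.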

Additional observations from a re-analysis of the deposited data

Results flagged for a closer look

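The log2 ratios of Dnajc21, a factor of large ribosomal subunit assembly, were -0.11, -0.10, -0.13 and 0.07, and replicate 4 stood apart from the other 3 arrays. Its gap to the nearest array was 0.865 of the whole range of the 4 values, above Dixon's critical value for 4 values. The array's distance is small on the log2 scale, and the second Dnajc21 probe had -0.40, -0.14, -0.28 and 0.02, with replicate 4 highest again. This was the only such array found over 33 measured genes, and chance marks about 1 in 20 such groups.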

How the results depend on the processing

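The 3 called genes were lower under all 21 alternatives. The dye term, the rebuilt SAM test, the changed thresholds and the separate channels reuse the mean log2 ratios of the main fit. These settings could not change a direction, and dropping the fold limit could not lose a call. Dnaja1 was called in 20 of them, with means from -1.94 to -1.42, and Dnaja4 and Dnajb2 in 18 each. Dnajb5 was called in 7. Of the 30 genes not called, 16 kept one direction in every setting and 2 were called in any. With normexp fitted on all spots, 0 members were called lower (Dnaja1 -1.78, Dnaja4 -0.34 and Dnajb2 -0.39, with limma adjusted p = 0.21, 0.559 and 0.488), 0 Hsp70 and exchange factor genes were called lower and 0 higher, 4 member probes had a dye effect, and 15 genes in all were called lower and 5 higher. Without a fold limit 5 members were lower and with a 2-fold limit 1, and 0 exchange factors were then higher. The number of member probes with a dye effect, 12 as reported, was 7 with subtracted background, 1 with Agilent's processed signals and 1 with median centring in place of loess. Median centring also moved the share of higher genes among all called genes from 46% to 26.9%, with the median of all genes at -0.06. Leaving out one array gave 1 to 4 members called lower (1 without replicate 3), 0 to 1 Hsp70 and exchange factor genes called higher (0 without replicate 2 or 3) and 1 to 8 dye effects (7 without replicate 1, 1 without replicate 3 or 4). With the channels as separate samples and no replicate block for the array pair, 3 members were called lower, as with the pairing. Where no cause is evident from the setting itself, the cause was not tested.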
